A study of Mus musculus with 42 samples.

Results

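The 35 genes described here encode the folding machinery of the endoplasmic reticulum (ER) and the proteins that sense and answer its overload. They were chosen by name, for their known roles, among the genes listed in all 12 tables of a mouse colon RNA-seq series. All 35 had a row in every table, out of 12190 genes listed in all 12 tables and 19227 listed in at least 1. A gene entered a test where its mean normalized count in that table was at least 10. All 35 passed in 8 tables. Trib3 was below this level in both goblet Smad4 tables and Derl3 in both organoid tables of 72 h, which left 34 there.

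The series holds 42 libraries from sorted colon cells and colon organoids. Goblet cells (Muc2-mCherry positive) and stromal cells (Gli1-tdTomato positive) were sorted from proximal and distal colon 30 days after tamoxifen, with 2 libraries per group. Control mice carried Gli1-CreERT2 alone (GWTM2 for goblet cells, GWTT for stromal cells), and the others carried it together with Smad4 fl/fl (GS4M2, GS4T) or Alk3 fl/fl (GA3M2, GA3T). All of these mice, controls included, carried Gli1-CreERT2 and received tamoxifen, and the study used male and female animals of 2 to 4 months. Because Cre was driven by Gli1, the deletion was in stromal cells, and the sorted goblet cells kept both genes while living beside a changed stroma. Alk3 is listed in the tables as Bmpr1a, a receptor for bone morphogenetic proteins (BMP), and Smad4 carries the signal of BMP and TGF-beta receptors to the nucleus. Wild-type colon organoids, epithelial cultures grown in a medium with the BMP antagonist Noggin, were left untreated or received 10 nM IL-1α and IL-1β (called IL-1 here) or 10 nM IL-17A for 12 h or 72 h, with 3 libraries per group. The labels do not say which libraries came from separate mice or cultures, so p-values measure the spread between these libraries only.

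A goblet cell makes and packs large amounts of mucin, above all Muc2, whose chains are folded, bonded by disulfides and assembled in the ER before they leave for the Golgi. When unfolded chains build up, the sensors Ire1 (genes Ern1 and Ern2), PERK (Eif2ak3) and Atf6 are set free from the chaperone BiP (Hspa5) and start the unfolded protein response. Ire1 splices the mRNA of Xbp1, PERK slows translation and raises Atf4 and its target Ddit3 (CHOP), and Atf6 travels to the Golgi where its active part is released. Atf6 and spliced Xbp1 then raise chaperones and degradation factors, while Atf4 raises genes of amino acid supply. Splicing of Xbp1 and phosphorylation of PERK cannot be read from gene-level counts, so only mRNA levels of the members are described.

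Atf6 and Xbp1 act through the ER stress response element (ERSE), a CCAAT box and a CCACG block 9 bases apart. It is shown here because it ties the chaperone genes to one another in sequence. RefSeq promoters (250 bases before to 50 bases after the start, GRCm38.p6) were at hand for 29 of the 35 members, and not for Hyou1, Ern2, Manf, Atf6, Derl1 and Sec61a1. The pattern CCAAT, 9 bases of any kind and CCACG, searched on both strands, was found in 9 of the 29 member promoters (31.0%), against 33 of 27025 promoters in all (0.122%). ERSE-II, which is ATTGG, 1 base of any kind and CCACG, was found in 9 of the 27025 promoters (0.0333%), and 1 of them was that of Herpud1. The capitals below mark the bases that the motif fixes, and each element is given from its CCAAT side.
Hspa5, chr2:34772020-34772048, plus strand: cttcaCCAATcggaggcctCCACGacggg
Calr, chr8:84847070-84847098, plus strand: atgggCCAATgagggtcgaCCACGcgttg
Dnajc3, chr14:118937822-118937850, plus strand: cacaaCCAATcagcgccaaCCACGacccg
Pdia6, chr12:17266486-17266514, plus strand: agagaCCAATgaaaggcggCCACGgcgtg
Creld2, chr15:88819515-88819543, minus strand: gtggaCCAATtgaggctcgCCACGagaag
Hsp90b1, chr10:86705633-86705661, minus strand: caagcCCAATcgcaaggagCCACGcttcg
Hsp90b1, chr10:86705528-86705556, plus strand: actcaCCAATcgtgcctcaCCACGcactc
Herpud1, ERSE-II, chr8:94386368-94386396, plus strand: cgggcgctgATTGGgCCACGttggacact
In Hspa5, which encodes BiP, the Hsp70 chaperone of the ER, the element ended 47 bases before the start. The Hsp90b1 promoter (Grp94, the Hsp90 of the ER) held 2 elements, and the other members with an ERSE were Canx, Derl3 and Syvn1. The UPRE core TGACGTGG was found in 0 of 29 member promoters and in 0.503% of all promoters. The Atf4 motif TTGCATCA was found in Herpud1 only among the members and in 0.818% of all promoters. A match describes these letters in this window and is not evidence of binding.

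Libraries held 14221915 to 23686940 reads in genes. The members with few reads were Trib3 in goblet cells and stroma, Derl3 in goblet cells and organoids, Ern2 in stroma and Agr2 in control stroma. The targeted genes were read first. In stromal cells Smad4 fell in the Smad4 group in proximal colon (log2 fold change -1.09, SE 0.12, adjusted p = 0.0101) and in distal colon (log2 fold change -0.96, SE 0.25, adjusted p = 0.0425). Bmpr1a in the stromal Alk3 group was lower in every knockout library than in every control library, without passing the test (proximal log2 fold change -0.61, SE 0.14, adjusted p = 0.12; distal log2 fold change -0.69, SE 0.11, adjusted p = 0.101). In these comparisons 27.5% (proximal) and 26.8% (distal) of all genes lay wholly below their controls. In goblet cells, where no deletion was made, Smad4 differed by 0.02 and -0.09 on the log2 scale in the Smad4 groups, and Bmpr1a by -0.50 and -0.31 in the Alk3 groups, with each Alk3 library below both controls and no call (adjusted p = 0.282 and 0.487). In the goblet Alk3 groups 26.1% (proximal) and 22.2% (distal) of all genes lay below both controls. Bmpr1a also stood at -0.34 and -0.32 in the goblet Smad4 groups. Sex was not balanced between groups. By Xist, library 1 of each goblet control came from female mice and the other 10 goblet libraries from males, and all stromal Smad4 libraries and both distal stromal controls were female, while the other stromal groups held 1 library of each sex. The exons of Hsp90b1, Pdia3, Pdia4, Pdia6, Dnajb9, Manf, Eif2ak3, Syvn1, Derl2 and Sec61a1 share positions with other annotated genes, and whether reads were counted by strand is not given in the sources used here. The tables of one segment share their control libraries, so the Smad4 and Alk3 comparisons of a cell type are not independent. In the goblet Smad4 table of proximal colon, the study's own list of results names the groups the other way round, and the deposited column names were followed because its control columns hold the same reads as the controls of the Alk3 table. In sorted cells, a lower level cannot be told apart from fewer cells of the type that expresses the gene.

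In control mice the folding genes took a larger share of the reads of goblet cells than of stromal cells. They held 1.25% to 1.61% of goblet control reads and 0.635% to 0.810% of stromal control reads. On the scale of log2(CPM + 1), where CPM is the read count scaled to the total reads of a library in named genes, over 4 goblet and 4 stromal control libraries, 21 members were higher in goblet cells and 5 were higher in stromal cells, while 74.2% of all 12753 genes tested passed the same test. The median difference of the members was 0.48, beside 0.19 for all genes. The split depended on the scaling. By edgeR, which brought the median gene to 0.00, it was 16 and 8 (73.1% of genes passed), and with totals over the genes listed for both cell types, which hold 80% to 81.4% of stromal reads, it was 13 and 9 (74.1%). These are 2 cell types sorted from mice with different reporters, so the gate, the reporter and the cell type cannot be told apart.

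Agr2, a disulfide isomerase of mucus-making cells, was the most abundant member in goblet cells per kilobase of exon. It read 3950.3, 3850.2, 3049.9 and 2351 CPM in the goblet controls and 0.367, 8.59, 2.98 and 5.6 CPM in the stromal controls (log2 fold change 9.55, SE 0.55, adjusted p = 1.41e-06). Ern2, the Ire1 form of mucosal epithelium (Ire1β), read 486, 478, 479.8 and 447 CPM in goblet and 0, 4.02, 0.298 and 2.03 CPM in stromal controls (log2 fold change 7.81, SE 0.47, adjusted p = 1.80e-06). Both genes were thus nearly absent from control stroma, and the Ern2 mean of the goblet libraries was 473 ± 17.2 CPM (SD, n = 4). The third was Pdia5, a disulfide isomerase reported to act on Atf6, at 272, 247, 329.7 and 186 CPM in goblet and 26.6, 17.3, 24.1 and 17.8 CPM in stromal controls (log2 fold change 3.52, SE 0.20, adjusted p = 1.40e-06). Ern1, the Ire1 form present in most tissues (Ire1α), was expressed in both cell types and higher in goblet cells, with 95.0, 99.3, 124 and 153 CPM in goblet and 80.9, 71.7, 79.1 and 86.2 CPM in stromal controls (log2 fold change 0.54, SE 0.11, adjusted p = 0.00228).

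The other members higher in goblet cells included the calreticulin cycle and the ER's disulfide and cochaperone machinery. Pdia3, which works with calreticulin on glycoproteins, read 1435, 1530.1, 1700.0 and 1497 CPM in goblet and 688, 546, 481 and 472 CPM in stromal controls (log2 fold change 1.51, SE 0.13, adjusted p = 1.21e-05), with every goblet library above every stromal one. Sdf2l1, a partner of BiP complexes, followed at 69.1, 42.4, 87.8 and 47.7 CPM against 28.8, 15.3, 20.2 and 22.8 CPM (log2 fold change 1.44, SE 0.27, adjusted p = 0.00126). Smaller differences that passed, also by edgeR, were those of Manf (log2 difference 1.21), Sec61b (1.13), Calr (1.11), Dnajb11 (0.97), Hyou1 (0.90), Pdia6 (0.77), Derl2 (0.63), P4hb (0.58), Syvn1 (0.54) and Sec61a1 (0.48). Pdia4 (0.55), Canx (0.54), Eif2ak3 (0.46), Edem1 (0.39) and Herpud1 (0.35) passed here and not by edgeR. Hspa5 did not pass, with 1534, 860.4, 1880.2 and 875 CPM in goblet and 1302, 806, 633 and 851 CPM in stromal controls (log2 fold change 0.48, SE 0.31, adjusted p = 0.193). Xbp1 did not pass either, at 437, 425, 481 and 346 CPM against 338, 310.0, 385 and 420.3 CPM (log2 fold change 0.22, SE 0.13, adjusted p = 0.156).

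The 5 members higher in stroma were Derl3, Dnajb9, Trib3, Ddit3 and Sel1l, and edgeR called all 5. Derl3, a degradation channel protein known from plasma cells, read 2.02, 1.2, 2.1 and 2.94 CPM in goblet and 12.0, 25.6, 30.1 and 41.2 CPM in stromal controls (log2 fold change -3.11, SE 0.27, adjusted p = 1.28e-05). The summed CPM of 8 plasma cell markers in the stromal controls ran from 10135 to 28186, and the part of those cells in the difference was not tested. Dnajb9, a BiP cochaperone that damps Ire1, read 30.2, 33.9, 32.4 and 37.7 CPM against 118, 91.9, 70.1 and 86.4 CPM (log2 fold change -1.40, SE 0.15, adjusted p = 4.48e-05). Ddit3 read 12.6, 8.88, 10.1 and 6.94 CPM against 18.05, 16.5, 10.6 and 12.5 CPM (log2 fold change -0.54, SE 0.17, adjusted p = 0.0195), a call that was lost without any 1 of 4 libraries (proximal or distal goblet library 2, proximal stromal library 1 or distal stromal library 2). Its upstream factor Atf4 read 314, 308, 294 and 244 CPM against 294, 265, 298 and 331 CPM and did not pass (log2 fold change -0.04, SE 0.11, adjusted p = 0.762). For Ddit3, 1 goblet library lay within the stromal range, whereas Derl3 and Dnajb9 did not overlap. Trib3 (-0.96), a pseudokinase raised by Atf4 and CHOP, stood at 0.25 to 1.47 CPM in goblet controls, and Sel1l, an adaptor of the degradation ligase, differed by -0.53. Edem2 (-0.16), Atf6 (-0.11) and Derl1 (-0.09) did not pass here and were called higher in stroma by edgeR.

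Related genes outside the members are counted here beside the 74.2% of all genes that passed. All 10 of 10 tested mitochondrial chaperones and proteases were higher in goblet cells, led by Hspd1, the mitochondrial Hsp60 (log2 difference 2.23). Of 12 cytosolic heat shock genes, 2 were higher in goblet and 7 in stromal cells, with Hspa1a at -4.27. Among genes of transport between ER and Golgi 21 of 29 were higher and 4 lower in goblet cells, and among genes of protein entry and N-glycosylation 19 of 31 were higher and 4 lower. Among the other folding enzymes 14 of 25 were higher and 8 lower, with the reticulocalbin Rcn1 at -4.69, and among the other degradation factors 11 of 20 were higher and 3 lower. Of 31 targets of Atf4 and the integrated stress response 13 were higher and 4 lower. Of 11 transcription factors of secretory cells 5 were higher, among them Creb3l4 (5.72) and Creb3l1 (3.58), and 4 were lower. Within one cell type the segments differed little. No member passed between proximal and distal goblet controls, where 2.17% of genes did, and Edem2 alone, a mannosidase-like factor that marks chains for degradation, was lower in proximal than in distal stroma (log2 difference -0.62, SE 0.11, adjusted p = 0.0299), where 2.09% of genes passed.

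**Figure D1:**
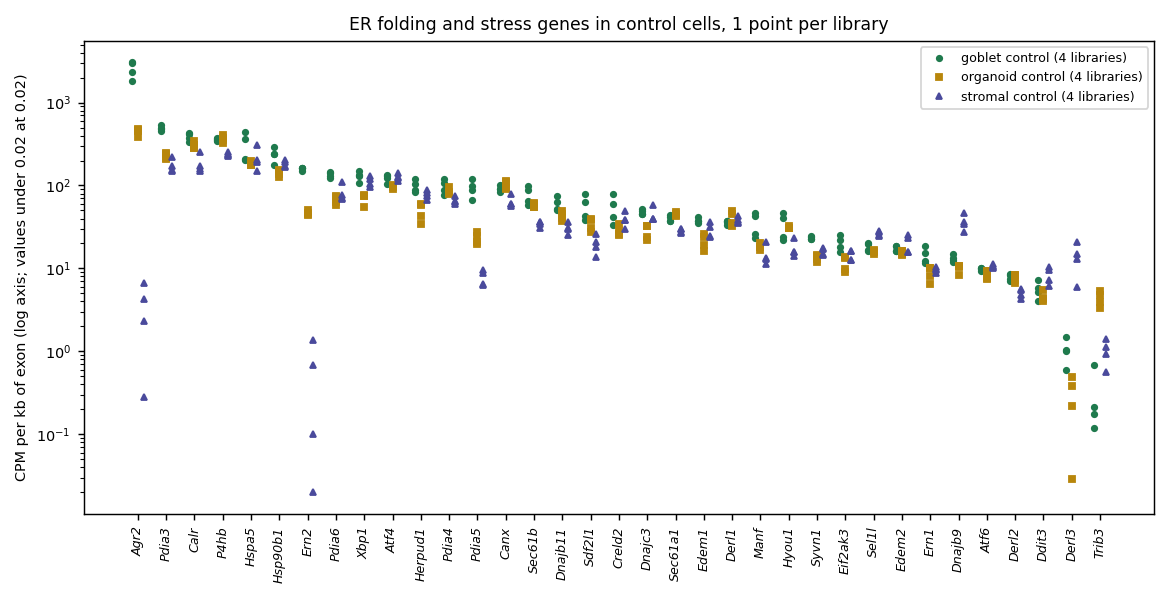
Levels of the 35 members in the control libraries, in CPM per kilobase of exon on a log axis, with 1 point per library for goblet cells, stromal cells and organoids (4 each) and members ordered from left to right by level. Agr2 and Ern2 separate goblet from stromal cells most widely, and the Hspa5 points of both cell types overlap.

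In goblet cells beside Smad4-deleted or Alk3-deleted stroma, no member passed the test in any of the 4 comparisons. The share of all genes that passed was 0.325% for Smad4 in proximal colon, 0% for Smad4 in distal colon, 0.0899% for Alk3 in proximal colon and 0% for Alk3 in distal colon, so few calls of any kind were made with 2 libraries against 2. By unadjusted p under 0.05, limma gave 8 members higher and 0 lower, 5 and 3, 2 and 2, and 1 and 4, in the same order. DESeq2 on the reads called Eif2ak3 and Sec61a1 for proximal Smad4, Agr2 for proximal Alk3, Ern1 for distal Alk3 and 0 members for distal Smad4. The share of all genes is not given for the unadjusted p or for DESeq2, so these counts do not show whether members stand out. The median log2 fold change of the members was 0.09, 0.06, -0.08 and -0.13, against 0.00 for all genes in each table. A p that misses the threshold with 2 libraries per group does not show that a gene stayed level.

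Hspa5 was among the genes with the widest spread. Its SD between goblet libraries of a group exceeded that of 96.8% of the genes compared, beside 16.9% for P4hb and 1.17% for Derl1. In proximal colon its normalized counts were 26119 and 14747 in the controls and 21629 and 18492 in the Smad4 group (log2 fold change 0.03, SE 0.27, adjusted p = 0.973), and in distal colon 33296 and 15828 and 29382 and 22151 (log2 fold change 0.15, SE 0.38, adjusted p = 0.9). In the Alk3 group it read 32875 and 17224 beside controls of 27809 and 15590.5 in proximal colon (log2 fold change 0.19, SE 0.43, adjusted p = 0.838). In distal colon it read 35053 and 18444 beside 31853 and 15278 (log2 fold change 0.20, SE 0.45, adjusted p = 0.885). In each of the 6 goblet groups library 1 held more Hspa5 than library 2, by 1.20 to 2.15 times in CPM. Each knockout group overlapped its control group. Among the 34 other members, 18 had the same order of the 2 libraries in all 6 groups and 0 had the opposite order in all 6, while 6.90% of 12970 other genes matched Hspa5 in all 6. These 18 included the chaperones Hsp90b1, Calr, Canx and Hyou1, the isomerases Pdia4, Pdia5 and Pdia6, the cochaperones Sdf2l1, Creld2 and Manf, and Xbp1, Eif2ak3, Sel1l, Edem1 and Agr2. In the stromal groups, where the 2 libraries did not keep one order for Hspa5, 1 of 34 (Xbp1) matched it in all 6 groups, beside 1.32% of genes. The goblet controls with more Hspa5 were the female ones, while both libraries of every goblet knockout group were male.

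**Figure D2:**
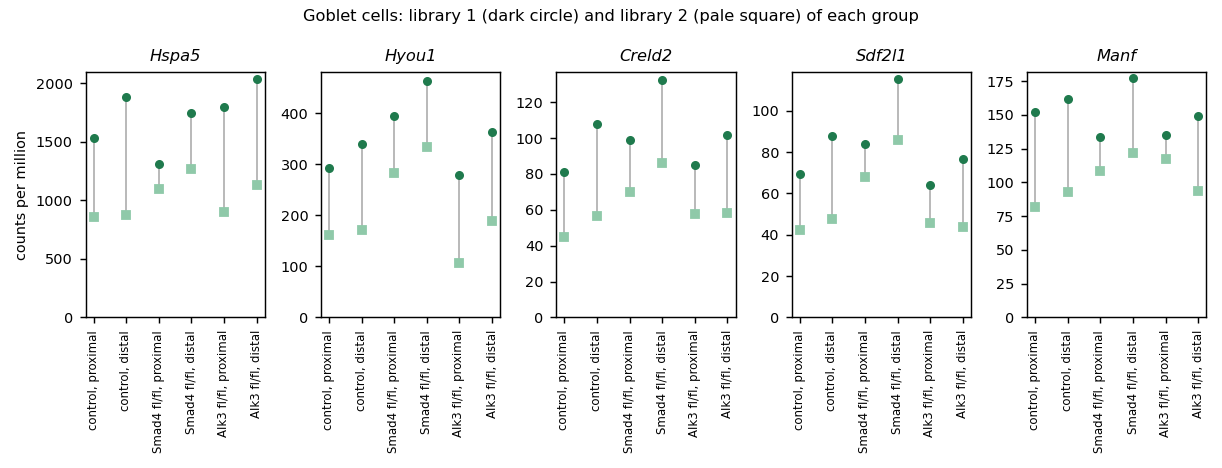
CPM of Hspa5, Hyou1, Creld2, Sdf2l1 and Manf (vertical axes from 0) in library 1 (circle) and library 2 (square) of each of the 6 goblet groups, with lines joining the libraries of a group. Library 1 lies above library 2 for Hspa5 in all 6 groups, with ratios from 1.20 to 2.15.

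Agr2 and Ern2, the members tied to mucus, read lower beside the Alk3 deletion without passing the test. Agr2 in proximal colon read 71591 and 69765 in controls and 40907 and 38230.3 in the Alk3 group (log2 fold change -0.84, SE 0.30, adjusted p = 0.287), and in distal colon 51671 and 41066 and 34286 and 20694 (log2 fold change -0.79, SE 0.30, adjusted p = 0.417). The Alk3 libraries lay below both controls in both segments, as did those of 26.1% (proximal) and 22.2% (distal) of all genes. In the Smad4 group it read 68245 and 50132 beside 67239.6 and 65991 in proximal colon (log2 fold change -0.19, SE 0.22, adjusted p = 0.715) and 56081 and 42442 beside 54012 and 42545 in distal colon (log2 fold change 0.03, SE 0.23, adjusted p = 0.974), with overlapping groups in both. Ern2 read 6903 and 1303 in the proximal Alk3 group beside 8802 and 8663 in controls (log2 fold change -1.54, SE 0.71, adjusted p = 0.356). Library 2 of that group carried the low value. In distal colon the Alk3 group read 5830.1 and 5589 beside 8129 and 7816 (log2 fold change -0.48, SE 0.13, adjusted p = 0.335), and the Smad4 group read 6344 and 5836 beside 8497 and 8098 (log2 fold change -0.45, SE 0.11, adjusted p = 0.393). In the proximal Smad4 group Ern2 read 8394 and 7621 beside 8267 and 8194 (log2 fold change -0.04, SE 0.11, adjusted p = 0.883). Muc2 itself, whose reporter was the gate, fell in the proximal Alk3 group from 179572 and 224217 to 18753 and 14042 (log2 fold change -3.63, SE 0.34, adjusted p = 0.0464). The summed CPM of 10 goblet markers ran from 31094 to 34820.3 in the proximal controls and from 10697 to 13879 in the proximal Alk3 group. In distal colon it ran from 35359 to 63492 in controls and from 15651 to 24525 in the Alk3 group. Neutrophil markers (3 of 6 genes with a row) summed to 0.378 to 1.06 CPM in proximal controls and 19.8 to 82.1 CPM in the proximal Alk3 group, and to 7.94 to 9.01 CPM and 73.0 to 125 CPM in distal colon. Macrophage markers summed to 6.10 to 6.55 CPM and 28.5 to 41.1 CPM in proximal colon, and to 4.38 to 7.54 CPM and 30.9 to 38.1 CPM in distal colon. In the Smad4 groups Muc2 stood at log2 fold changes of 1.00 and 1.62 without passing (adjusted p = 0.237 and 0.429). The part of these shifts in the lower Agr2 and Ern2 was not tested.

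The transcription factors showed no common direction. Xbp1 read 8255 and 7479 in the proximal Smad4 group beside 7444 and 7282 (log2 fold change 0.09, SE 0.11, adjusted p = 0.703) and 7304 and 6283 in the distal one beside 8515 and 6265 (log2 fold change -0.11, SE 0.19, adjusted p = 0.846). In the Alk3 group it read 9317 and 8436 beside 7926 and 7698 in proximal colon (log2 fold change 0.18, SE 0.19, adjusted p = 0.638), and 8938 and 6472 beside 8146 and 6048 in distal colon (log2 fold change 0.12, SE 0.23, adjusted p = 0.873). None of these differences came near the threshold. Ddit3 read 95.6 and 164 beside 214 and 152 in the proximal Smad4 group (log2 fold change -0.52, SE 0.32, adjusted p = 0.452), and 131 and 188 beside 179 and 126 in the distal one (log2 fold change 0.06, SE 0.30, adjusted p = 0.951). It read 243 and 314 beside 228 and 161 in the proximal Alk3 group (log2 fold change 0.53, SE 0.28, adjusted p = 0.398), and 269 and 186 beside 171 and 121 in the distal one (log2 fold change 0.63, SE 0.30, adjusted p = 0.485). Ddit3 was above both controls in both Alk3 groups, as were 26% and 22.1% of all genes, and overlapped them in the Smad4 groups. Among the related genes Bhlha15 (Mist1), a transcription factor that enlarges the secretory apparatus, rose in the proximal Smad4 group from 27.5 and 20.51 to 279.6 and 234 (log2 fold change 3.38, SE 0.27, adjusted p = 0.0176), and it was the single gene of the 8 related lists to pass in any goblet knockout comparison. When the 2 knockouts were compared directly in CPM, 0 members passed in proximal colon (0.601% of genes) or in distal colon (0.863%). The effect of Smad4 differed between segments for 0 members (0% of genes), and so did that of Alk3 (0.00771%).

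In sorted stromal cells, where the deletion was made, members changed in the Smad4 group in both directions. In proximal colon 0 members rose and 3 fell of 35, while 15.6% of all genes passed. In distal colon 4 rose and 6 fell of 35, while 23.2% of all genes passed. Read against those shares, 3 of 35 and 10 of 35 members were few and about as many as among other genes. The medians were -0.08 and 0.01 on the log2 scale, beside 0.02 and 0.00 for all genes. Without Smad4 library 1 the proximal count went to 0 and without library 2 to 1, while leaving out a control gave 7 or 5. The distal count was 4 or 3 without a control library, 4 without Smad4 library 1 and 13 without Smad4 library 2. Markers of myeloid cells were higher in the same groups. Neutrophil markers summed to 2.08 to 6.49 CPM in proximal controls and 66.9 to 83.1 CPM in the proximal Smad4 group, with 4 of 5 tested higher, and to 3.58 to 6.32 CPM and 162 to 226 CPM in distal colon, with 6 of 6 higher. Macrophage markers summed to 183 to 295 CPM and 881 to 1570.5 CPM in proximal colon, with 6 of 8 higher, and to 602 to 703 CPM and 1109 to 2032 CPM in distal colon, with 4 of 8 higher. Their part in the members' changes was not tested.

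Dnajb9 and Eif2ak3 fell in both segments. Dnajb9 read 1986 and 1525 in proximal controls and 851 and 868 in the Smad4 group (log2 fold change -1.02, SE 0.15, adjusted p = 0.0174), and 1150.0 and 1403 and 801 and 911 in distal colon (log2 fold change -0.57, SE 0.14, adjusted p = 0.0396). Eif2ak3 read 1292 and 1266 and 902 and 963 in proximal colon (log2 fold change -0.46, SE 0.10, adjusted p = 0.0422), and 1618 and 1581 and 849 and 881 in distal colon (log2 fold change -0.89, SE 0.10, adjusted p = 0.00463). The groups did not overlap for either gene, and 31.4% (proximal) and 33.1% (distal) of all genes also lay wholly below their controls. Herpud1, which recruits ubiquitin ligases at the ER membrane, fell in proximal colon from 3164 and 3373 to 1483 and 2018 (log2 fold change -0.92, SE 0.17, adjusted p = 0.0276), and in distal colon the log2 fold change was -0.73 (adjusted p = 0.0899).

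In distal colon the degradation factors Edem1, Edem2 and Derl3 and the factor Xbp1 fell as well. Edem2 went from 1311 and 1421 to 646 and 748 (log2 fold change -0.97, SE 0.13, adjusted p = 0.00614) and Edem1, a factor of the same kind, from 3336 and 3788 to 2621 and 2532 (log2 fold change -0.46, SE 0.11, adjusted p = 0.0344). Derl3 went from 493 and 669 to 33.7 and 169 (log2 fold change -2.91, SE 0.71, adjusted p = 0.0354). Xbp1 went from 6319 and 6824 to 3629.9 and 4876 (log2 fold change -0.64, SE 0.16, adjusted p = 0.0404). Every knockout library was below every control library for these 4 genes, which held for 33.1% of all genes. In proximal colon the same genes did not pass: Edem2 was at -0.44 (adjusted p = 0.0505), Derl3 at -1.40 (adjusted p = 0.0973), and Xbp1 read 5707 and 5141 in controls and 3730.3 and 4827 in the Smad4 group (log2 fold change -0.35, SE 0.16, adjusted p = 0.186). Plasma cells are rich in Xbp1, Derl3 and Edem proteins. The summed CPM of 8 plasma cell markers went from 21582 to 28186 in distal controls to 1660 to 6551 in the distal Smad4 group, with 6 of 8 markers lower and 1 higher, and from 10135 to 16633 to 4100 to 6553 in proximal colon, with 2 lower and 1 higher. The part of plasma cells in the lower Xbp1, Derl3 and Edem2 was not tested.

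The 4 members that rose in distal stroma were isomerases and a lectin chaperone. P4hb, the classical disulfide isomerase and the beta subunit of collagen prolyl hydroxylase, went from 11840.1 and 10969.9 to 17129 and 16542 (log2 fold change 0.56, SE 0.13, adjusted p = 0.0307). In proximal colon it read 11719.8 and 10873 and 15392 and 15436 (log2 fold change 0.45, SE 0.13, adjusted p = 0.0727), again without overlap. Every knockout library was above every control library for 34.4% (distal) and 34% (proximal) of all genes. Calr, the soluble lectin chaperone, went from 8206 and 7033 to 12235 and 10329 (log2 fold change 0.57, SE 0.15, adjusted p = 0.0435), and Pdia5 from 395 and 289 to 652 and 604 (log2 fold change 0.89, SE 0.19, adjusted p = 0.0248). Agr2 went from 48.9 and 91.0 to 407 and 652 (log2 fold change 2.93, SE 0.38, adjusted p = 0.00601), and in proximal colon from 6.2 and 142 to 549 and 1436 (log2 fold change 4.79, SE 1.43, adjusted p = 0.0824). Ern2 read 0 and 66.6 and 124 and 201.3 in proximal colon (log2 fold change 4.27, SE 1.95, adjusted p = 0.193), and 4.89 and 32.9 and 75.3 and 196 in distal colon (log2 fold change 3.12, SE 0.92, adjusted p = 0.0599). Both are genes of epithelium, and the summed CPM of 6 epithelial markers moved with them, from 13.2 to 496 in proximal controls to 1200 to 1578 in the proximal Smad4 group, with 1 of 6 higher, and from 55.2 to 175 to 684 to 1364 in distal colon, with 6 of 6 higher. The 10 goblet markers summed to 148 to 293 CPM in distal controls and 281 to 885 CPM in the distal Smad4 group. The part of epithelial cells in the Agr2 and Ern2 values was not tested.

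Hspa5 and Ddit3 did not pass in either segment. Hspa5 read 22013 and 13373 and 12961 and 16424 in proximal colon (log2 fold change -0.23, SE 0.28, adjusted p = 0.596), with overlap, and 10388 and 13823 and 14946 and 15831 in distal colon (log2 fold change 0.36, SE 0.17, adjusted p = 0.188), without overlap. In distal colon 34.4% of all genes lay wholly above their controls. Ddit3 read 305 and 274 and 152 and 207 in proximal colon (log2 fold change -0.70, SE 0.22, adjusted p = 0.0973), and 174 and 202 and 151 and 188 in distal colon (log2 fold change -0.15, SE 0.23, adjusted p = 0.666). Related genes of the stress responses passed as well. In proximal stroma 9 of 32 targets of Atf4 and the integrated stress response passed, 4 higher and 5 lower. Ppp1r15a (Gadd34), which reverses the PERK signal, fell from 9017 and 7589 to 2463 and 2102 (log2 fold change -1.86, SE 0.14, adjusted p = 0.00523), and Atf3, an immediate stress factor, from 6415 and 4229.9 to 1476 and 1213 (log2 fold change -1.96, SE 0.23, adjusted p = 0.0105). The cystine carrier Slc7a11 rose (log2 fold change 3.92, adjusted p = 0.0149). Of 12 cytosolic heat shock genes 5 fell and 0 rose, led by Hspa1a (-1.55) and Dnajb1 (-1.46). Of 11 transcription factors of secretory cells Creb3l1 (1.77) and Creb3 (0.76) rose, and of 29 transport genes 1 rose and 1 fell.

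In distal stroma 5 of 32 genes of the integrated stress response rose and 6 fell, again with Slc7a11 (4.21) higher and Ppp1r15a (-1.51) and Stc2 (-1.41) lower, and with Chac1, a glutathione-degrading target of Atf4, lower (-2.08). Among genes of protein entry and N-glycosylation 3 of 31 rose and 1 fell, the latter Sec11c, a signal peptidase subunit (-1.15). Among the other degradation factors 3 of 20 rose, among the other folding enzymes 1 of 26 rose and 1 fell, and among transport genes 2 of 29 rose. Creb3l1 (1.03), a factor that directs collagen secretion, rose here too, and the heat shock genes split into 2 higher and 2 lower of 12. Mitochondrial chaperones gave 0 calls in either segment.

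**Figure D3:**
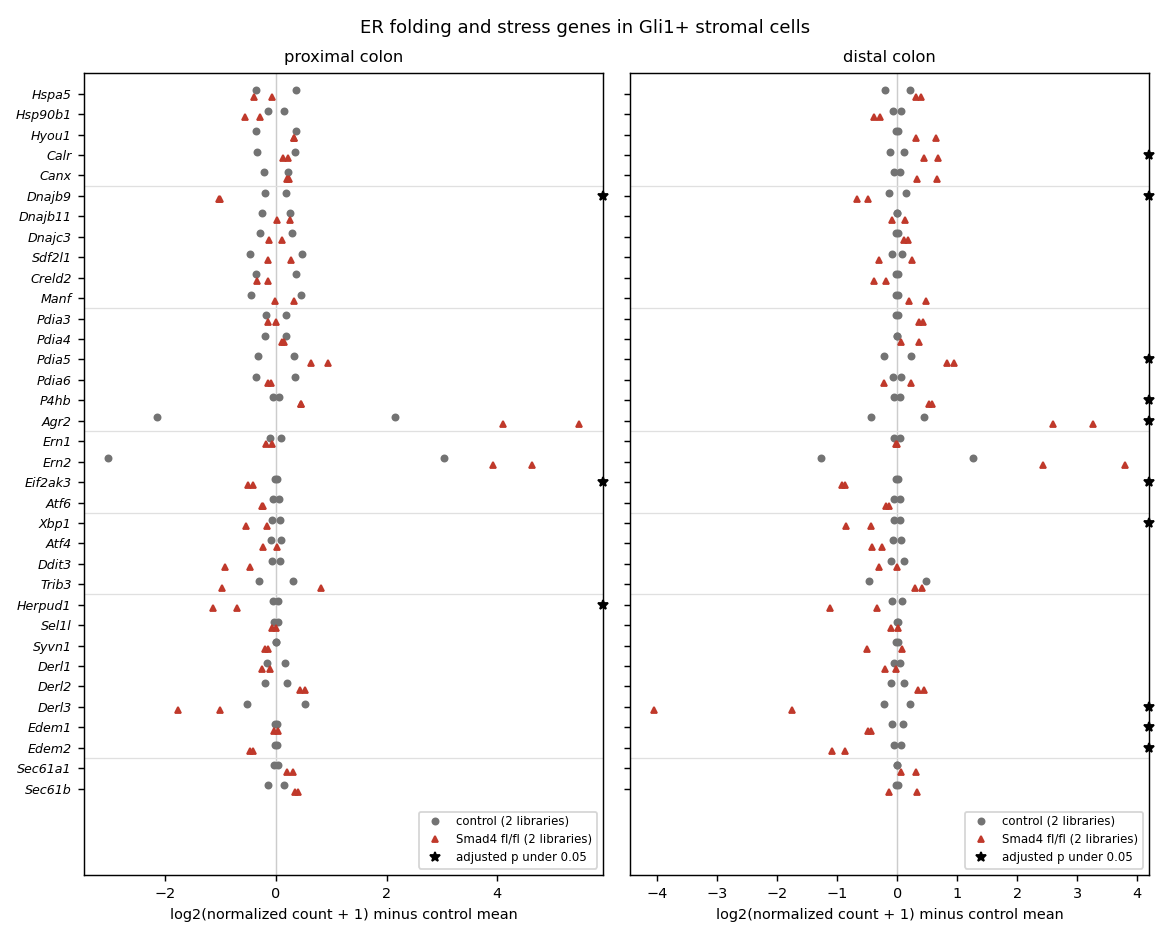
Members (rows, grouped by role) in stromal cells of the Smad4 group in proximal and distal colon, as log2(normalized count + 1) less the control mean of each gene, with 1 point per library for controls (circles) and knockouts (triangles) and a star at the right edge where the adjusted p was under 0.05. Dnajb9 and Eif2ak3 lie left of their controls and carry a star in both segments.

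Beside Alk3 deletion no member passed in stromal cells, in proximal colon (0.358% of all genes passed) or in distal colon (0%). By unadjusted p under 0.05, 1 member was higher and 4 were lower in proximal colon, and 6 higher and 5 lower in distal colon, and DESeq2 called 2 and 5 members. These counts are given without the share of all genes under the same rules, so they do not show whether members stand out. Several values leaned as in the Smad4 group. Dnajb9 read 2089.8 and 1603 and 1009 and 1232 in proximal colon (log2 fold change -0.71, SE 0.18, adjusted p = 0.136), Eif2ak3 read 1846 and 1799 and 1248 and 1187 in distal colon (log2 fold change -0.58, SE 0.10, adjusted p = 0.116), and Edem2 read 1496 and 1617 and 859 and 1051 in distal colon (log2 fold change -0.71, SE 0.14, adjusted p = 0.128). These groups did not overlap, but they share their controls with the Smad4 comparison, and 27.5% and 26.8% of all genes lay wholly below their controls in these 2 tables. Agr2 read 6.53 and 149.8 and 289.6 and 615 in proximal colon (log2 fold change 3.65, SE 1.44, adjusted p = 0.236), and 55.8 and 104 and 625 and 283 in distal colon (log2 fold change 2.45, SE 0.49, adjusted p = 0.128). Ern2 read 0 and 70.0 and 63.1 and 88.4 in proximal colon (log2 fold change 3.17, SE 2.02, adjusted p = 0.419), and 5.58 and 37.5 and 121 and 71.2 in distal colon (log2 fold change 2.56, SE 0.91, adjusted p = 0.236). Over all stromal libraries Agr2 reached at most 84.0 CPM and Ern2 at most 11.8 CPM, both in library 2 of the proximal Smad4 group. Their means in goblet controls were 3300 and 473 CPM.

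Of the remaining fixed genes in the Alk3 group, Hspa5 read 23160.3 and 14061 and 11282 and 22953 in proximal colon (log2 fold change -0.17, SE 0.43, adjusted p = 0.851), and 11851 and 15730.5 and 13199 and 26128 in distal colon (log2 fold change 0.44, SE 0.36, adjusted p = 0.547). The 2 Alk3 libraries of a segment differed from each other about as much as from the controls. Xbp1 read 6005 and 5405 and 3951 and 4957 in proximal colon (log2 fold change -0.36, SE 0.16, adjusted p = 0.262), and 7209 and 7766 and 4835 and 7188 in distal colon (log2 fold change -0.34, SE 0.21, adjusted p = 0.436). Ddit3 read 321 and 288 and 188 and 274 in proximal colon (log2 fold change -0.42, SE 0.24, adjusted p = 0.385), and 199 and 230.2 and 283 and 240.3 in distal colon (log2 fold change 0.28, SE 0.20, adjusted p = 0.489). Set against each other in CPM, Smad4 and Alk3 stroma differed for 0 members in proximal colon (0.125% of genes) and in distal colon (3.34%). The Smad4 effect differed between segments for 0 members (0.0722% of genes), and the Alk3 effect for 0 (0%).

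Before the organoid results, the libraries need a word. Control library 2 of 12 h and control library 1 of 72 h held the same reads for 14247 of 14248 genes, and so did control library 4 of both times, so the 6 control columns hold 4 distinct libraries and the 12 h and 72 h comparisons share controls. Control libraries 2 and 4 of 72 h, IL-1 libraries 3 and 4 of 12 h and IL-17A libraries 3 and 4 of 12 h differed by only 2.60 to 2.87 times the sampling noise, where the other pairs of organoid libraries within a group differed by 7.37 to 92.0 times. Xist, transcribed in female cells only, shows that organoids of both sexes were used. At 12 h control libraries 1 and 2 and cytokine library 1 lacked it, while control library 4 and cytokine libraries 3 and 4 carried it. At 72 h it was carried by control libraries 2 and 4 and IL-1 library 2, and by none of the IL-17A libraries. At 12 h all 7 of 7 pairs of same-numbered libraries deviated together (correlations from 0.711 to 0.933), so values from a fit with the library number as a block are given beside the unblocked ones. Same-numbered libraries of 12 h also agreed in Xist, so pairing by number cannot be told apart from sex. Controls are numbered 1, 2 and 4 and cytokine libraries 1, 3 and 4, so this block rests on 2 shared numbers. A block over all 9 libraries of 12 h also uses number 3, which only the cytokine groups share, and its values are given as well. In either fit control library 2 is alone under its number, so blocked cytokine effects rest on control libraries 1 and 4. The 9-library fit counts the near-identical cytokine libraries 3 and 4 separately, so its p-values may be too small.

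At 12 h the chaperones and their partners stood higher with either cytokine, by amounts that limma called only with the block. Without it 0 members passed for IL-1 (0.0542% of all genes) and 0 for IL-17A (0.0385%). At unadjusted p under 0.05 there were 13 members for each, all upward, and DESeq2 on the reads called 4 and 6. The share of all genes is not given for these last rules, so their counts are not set against a background. Of 35 members 33 lay above 0 for IL-1 (50.6% of all genes) and 34 for IL-17A (49.2%). The median log2 fold changes were 0.25 and 0.31 against 0.00 for all genes. In 15 members every IL-1 library was above every control library (5.31% of all genes), in 18 members every IL-17A library was (5.91%), and 0 members were wholly below. With the library number as a block 16 members rose with IL-1 (4.31% of genes) and 20 with IL-17A (7.72%), and 0 fell. Over the 9 libraries of 12 h with the block, 18 rose with IL-1 (8.2% of genes) and 20 with IL-17A (10.3%), and 0 fell. With cytokine libraries 3 and 4 averaged in that fit, 15 rose with IL-1 (6.18% of genes) and 18 with IL-17A (8.38%), and 0 fell. The share of all reads held by the members was 0.756% to 0.836% in controls, 0.981% to 0.985% with IL-1 and 0.961% to 1.05% with IL-17A.

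Hspa5 read 13640.2, 11770.2 and 11649 in controls and 18813, 17245 and 17565 with IL-1 (log2 fold change 0.54, SE 0.11, adjusted p = 0.482; with the block over 9 libraries log2 fold change 0.47, SE 0.06, adjusted p = 2.74e-06). With IL-17A it read 19294, 19437 and 20477 beside controls of 14320.0, 12334 and 12197 on that table's scale (log2 fold change 0.61, SE 0.11, adjusted p = 0.257; with the block over 9 libraries log2 fold change 0.54, SE 0.06, adjusted p = 2.26e-07). All cytokine libraries were above all controls. Hyou1, the large Hsp70 relative that exchanges nucleotide for BiP, read 3557, 3492 and 3429.5 and 5168, 4947 and 4844 with IL-1 (log2 fold change 0.51, SE 0.09, adjusted p = 0.262; blocked log2 fold change 0.46, SE 0.05, adjusted p = 6.34e-07), and 3735, 3659 and 3591 and 5285, 5340.4 and 5352 with IL-17A (log2 fold change 0.54, SE 0.08, adjusted p = 0.155; blocked log2 fold change 0.48, SE 0.05, adjusted p = 1.88e-07). The spread within each group of Hyou1 was small beside the gap between groups. Hsp90b1 read 9003, 8086 and 9293 and 11506, 13478 and 13548 with IL-1 (blocked log2 fold change 0.40, SE 0.06, adjusted p = 6.27e-05), and 9452, 8473 and 9731 and 11517, 14495 and 15616 with IL-17A (blocked log2 fold change 0.43, SE 0.06, adjusted p = 1.81e-05). Calr read 15897, 14023 and 12576 and 20818, 16246 and 16487 with IL-1 (blocked log2 fold change 0.33, SE 0.05, adjusted p = 7.81e-05), and 16689, 14695 and 13168 and 22386, 18780.0 and 19111 with IL-17A (blocked log2 fold change 0.43, SE 0.05, adjusted p = 1.21e-06). Canx, the membrane-bound lectin chaperone, rose least of the 5 chaperones (blocked 0.17 with IL-1 and 0.20 with IL-17A), and its call with IL-1 was lost with the averaged libraries.

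Cochaperones and secreted ER stress proteins followed. Manf, a secreted protein of the ER stress response, read 1044, 933 and 1096 and 1377, 1362 and 1364 with IL-1 (blocked log2 fold change 0.28, SE 0.06, adjusted p = 0.00595), and 1096, 978 and 1148 and 1452, 1626 and 1572 with IL-17A (blocked log2 fold change 0.39, SE 0.06, adjusted p = 0.000199). Dnajb9 read 348, 424 and 426 and 477, 601 and 561 with IL-1 (blocked log2 fold change 0.35, SE 0.09, adjusted p = 0.0151), and 365, 444 and 446 and 467, 664 and 638 with IL-17A (blocked log2 fold change 0.38, SE 0.09, adjusted p = 0.00708). Neither gene overlapped between controls and cytokine libraries. Sdf2l1 (0.33 and 0.30), Creld2 (0.29 and 0.34) and Dnajc3 (0.24 and 0.26), also called p58IPK, rose with both cytokines in the 9-library fit, and Dnajb11 rose with IL-17A (0.23). With cytokine libraries 3 and 4 averaged, Sdf2l1 lost its call with both cytokines and Creld2 with IL-1. Among the isomerases Pdia4 read 3328, 3161 and 3286 and 4033, 4491 and 4920.3 with IL-17A (blocked log2 fold change 0.36, SE 0.06, adjusted p = 0.00011), Pdia6 (0.30 and 0.35), Pdia3 (0.22 and 0.25) and P4hb (0.21 and 0.22) rose with both, and Pdia5 and Agr2 did not pass. The translocon pore Sec61a1 rose with both (0.23 and 0.22), and with IL-17A Edem2 (0.26) and the sensor Atf6 (0.21) rose too, and Atf6 lost its call with the averaged libraries.

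Herpud1 had the largest change of the members with both cytokines in the 9-library fit. It read 1598, 1276 and 2154 and 2543, 3167 and 3187 with IL-1 (log2 fold change 0.85, SE 0.20, adjusted p = 0.694; blocked log2 fold change 0.51, SE 0.07, adjusted p = 4.17e-05), and 1677, 1337 and 2255 and 2596, 4539 and 4098 with IL-17A (log2 fold change 1.08, SE 0.27, adjusted p = 0.73; blocked log2 fold change 0.74, SE 0.07, adjusted p = 1.03e-07). In every group the libraries without Xist read lowest and those with Xist highest. The sensor Ern1 read 1071, 840.2 and 1290.5 and 1520.4, 1799 and 1746 with IL-1 (log2 fold change 0.68, SE 0.17, adjusted p = 0.759; blocked log2 fold change 0.40, SE 0.06, adjusted p = 0.000147), without overlap. With IL-17A it read 1125, 880.5 and 1351 and 1145, 1521 and 1463 (log2 fold change 0.31, SE 0.19, adjusted p = 0.926; blocked over 6 libraries log2 fold change 0.07, SE 0.08, adjusted p = 0.747), with overlap. Ern1 did not pass with IL-17A in the 9-library fit either. Set against each other in the 9-library fit, Ern1 was higher with IL-1 than with IL-17A (log2 fold change 0.37, SE 0.05, adjusted p = 0.000116) and Herpud1 was lower (log2 fold change -0.23, SE 0.06, adjusted p = 0.05), beside 2.26% of all genes that passed. Without the block 0 members and 0% of genes differed between the cytokines at 12 h.

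Of the transcription factors, Xbp1, Ddit3 and Atf4 did not pass with either cytokine, while Atf6 passed with IL-17A as given above. For Xbp1 every cytokine library was nevertheless above every control library, as for 5.31% (IL-1) and 5.91% (IL-17A) of all genes. Xbp1 read 3890.1, 2868 and 3836 and 4192, 4032 and 3971 with IL-1 (log2 fold change 0.22, SE 0.14, adjusted p = 0.886; blocked over 6 libraries log2 fold change 0.08, SE 0.07, adjusted p = 0.686), and 4084, 3005 and 4017 and 4818, 4668 and 4524 with IL-17A (log2 fold change 0.35, SE 0.14, adjusted p = 0.926; blocked log2 fold change 0.20, SE 0.07, adjusted p = 0.0545). Ddit3 read 120.0, 110.4 and 146 and 138, 132 and 125 with IL-1 (log2 fold change 0.08, SE 0.18, adjusted p = 0.918; blocked log2 fold change -0.01, SE 0.19, adjusted p = 0.989), and 126, 116 and 153 and 143, 162 and 181 with IL-17A (log2 fold change 0.30, SE 0.18, adjusted p = 0.926; blocked log2 fold change 0.21, SE 0.17, adjusted p = 0.591). Atf4 did not pass either (blocked log2 fold change 0.12, SE 0.07, adjusted p = 0.458 with IL-1 and log2 fold change 0.13, SE 0.07, adjusted p = 0.358 with IL-17A). In the 9-library fit Xbp1, Ddit3, Atf4, Ern2 and Agr2 did not pass with either cytokine. Trib3, the pseudokinase raised by Atf4 and CHOP and not itself a transcription factor, did pass, at 116, 179 and 129.9 and 197, 208 and 175 with IL-1 (blocked over 9 libraries log2 fold change 0.46, SE 0.14, adjusted p = 0.045), and 122, 187 and 136 and 203, 239 and 167 with IL-17A (blocked log2 fold change 0.44, SE 0.14, adjusted p = 0.0444). The goblet members stayed near their controls. Ern2 read 2436, 2085 and 2130.2 and 2347, 2059 and 1921 with IL-1 (log2 fold change -0.07, SE 0.12, adjusted p = 0.903; blocked log2 fold change -0.10, SE 0.07, adjusted p = 0.582), and 2557, 2184 and 2230.5 and 2526, 2467 and 2271 with IL-17A (log2 fold change 0.06, SE 0.10, adjusted p = 0.933; blocked log2 fold change 0.00, SE 0.07, adjusted p = 0.988). Agr2 read 9535, 7964 and 9407 and 10203, 9804 and 9955 with IL-1 (log2 fold change 0.16, SE 0.11, adjusted p = 0.886; blocked log2 fold change 0.09, SE 0.07, adjusted p = 0.638), and 10011, 8346 and 9850.2 and 10653, 10532 and 10451 with IL-17A (log2 fold change 0.17, SE 0.11, adjusted p = 0.926; blocked log2 fold change 0.09, SE 0.07, adjusted p = 0.607). Agr2 was above all controls in every cytokine library, yet the difference did not exceed the spread between numbered libraries. Without the block none of the 10 goblet, 6 epithelial or 6 colonocyte markers passed at 12 h with either cytokine. That fit called only 0.0542% (IL-1) and 0.0385% (IL-17A) of all genes, so it cannot show that cell makeup stayed the same.

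The members with an ERSE or ERSE-II in the printed window may be set beside this response as a description. With the block over 9 libraries 8 of these 10 rose with either cytokine, with median log2 fold changes of 0.30 with IL-1 and 0.35 with IL-17A. Of 19 members whose window held neither, 7 rose with IL-1 and 8 with IL-17A, with medians of 0.12 and 0.14. Of the 6 members without a promoter sequence, 3 and 4 rose. In that fit 8.2% and 10.3% of all genes passed. The 8 were Calr, Creld2, Dnajc3, Herpud1, Hsp90b1, Hspa5 and Pdia6, whose elements are printed above, and Canx, while Derl3 and Syvn1 carried an element and did not pass.

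Genes of the same pathways outside the members passed as well in the fit with the block over 9 libraries, 27 of them with IL-1 and 34 with IL-17A over the 8 lists, beside 8.2% and 10.3% of all genes. Of 32 targets of Atf4 and the integrated stress response 10 rose and 0 fell with IL-1, and 11 rose and 1 fell with IL-17A. Slc7a11 read 799, 900.1 and 1144 and 1308, 2729.9 and 2656 with IL-1 (blocked log2 fold change 0.91, SE 0.07, adjusted p = 5.05e-09), with IL-1 libraries 3 and 4 far above library 1, and Chac1 had log2 fold changes of 0.41 and 0.88. Among the other folding enzymes 3 of 24 rose with IL-1 and 4 with IL-17A, led by the thiol oxidase Ero1l (0.39 and 0.65), which passes disulfides to the isomerases. Among genes of protein entry and N-glycosylation 7 of 31 rose with IL-1 and 8 with IL-17A, among them Serp1 (0.28 and 0.24). Among the other degradation factors 2 of 20 rose with IL-1, and 4 rose and 1 fell with IL-17A. Of 30 transport genes 2 rose with IL-1 and 4 with IL-17A. Among 11 transcription factors Nfe2l1 rose with both (0.20 and 0.29), Bhlha15 rose with IL-1 (0.74) and Creb3l1 fell with IL-1 (-0.18). Cytosolic heat shock genes and mitochondrial chaperones gave 0 calls with either cytokine.

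**Figure D4:**
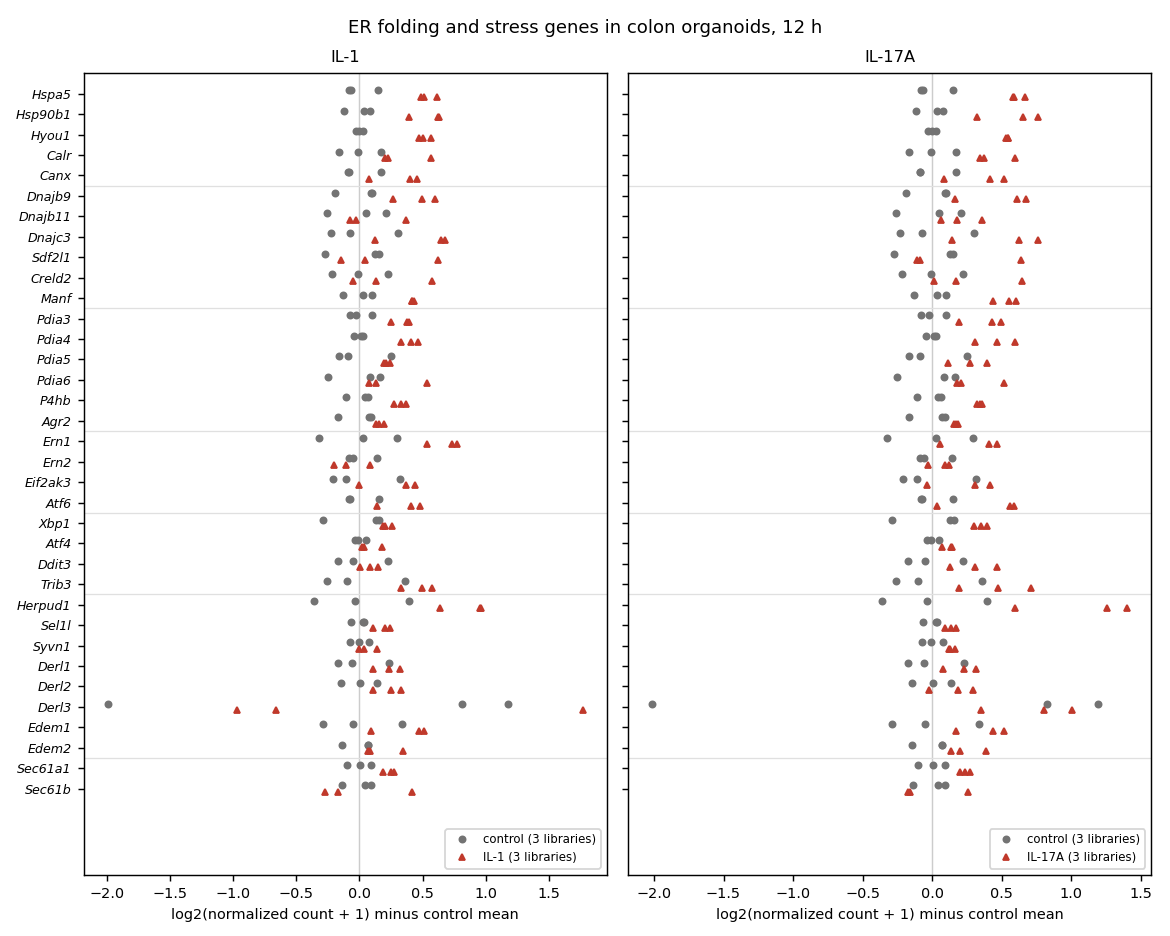
Members (rows, grouped by role) in organoids at 12 h with IL-1 or IL-17A, as log2(normalized count + 1) less the control mean of each gene, with 1 point per library for controls (circles) and cytokine libraries (triangles) and no test shown. Hspa5, Hyou1 and Hsp90b1 lie higher in all cytokine libraries, and Ern2 and Ddit3 overlap with the controls.

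At 72 h members of degradation and the factor Ddit3 were among those that rose with IL-1, and Hspa5 did not pass with either cytokine. With IL-1 5 of 34 members rose and 1 fell, while 38.5% of all genes passed. With IL-17A 1 rose and 0 fell, while 10.8% of genes passed. The medians were 0.00 for both cytokines, as for all genes. With IL-1 the members called, 6 of 34, were fewer than this share. With the near-identical control libraries averaged, 3 rose with IL-1 and 0 with IL-17A. The split depended on the scaling. In CPM with each distinct control entered once, where the median of all genes stood at -0.26 for both cytokines, 5 members were higher and 12 lower with IL-1 (48.1% of genes passed) and 6 higher and 11 lower with IL-17A (43.8%).

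Herpud1 rose with IL-1 from 1209.8, 2051 and 2067 to 4406, 3586 and 5058 (log2 fold change 1.32, SE 0.24, adjusted p = 0.00618), and with IL-17A it read 3765, 2812 and 5300.0 beside 1207, 2039 and 2062 (log2 fold change 1.15, SE 0.30, adjusted p = 0.0524). Edem1 rose with IL-1 from 1601, 2319.8 and 2497 to 3992, 3716 and 5401 (log2 fold change 1.04, SE 0.22, adjusted p = 0.00985). Both genes serve degradation, and every IL-1 library was above every control for both, as for 27% of all genes. Dnajb9 went from 402, 415 and 409 to 646, 656 and 958 (log2 fold change 0.86, SE 0.19, adjusted p = 0.0123), and P4hb from 13863, 17372 and 15840.2 to 29878, 21602 and 28313 (log2 fold change 0.75, SE 0.19, adjusted p = 0.0182). Ddit3, the pro-apoptotic factor CHOP, went from 105, 114 and 139.9 to 276, 175 and 339 (log2 fold change 1.09, SE 0.29, adjusted p = 0.0222), and with IL-17A it read 279, 127 and 336 beside 104, 114 and 139.6 (log2 fold change 0.94, SE 0.39, adjusted p = 0.125). In both treatments library 2 held the lowest cytokine value of Ddit3, and with IL-17A it lay within the control range. Pdia5 fell with IL-1 from 831, 1037 and 1123 to 469.5, 598 and 271 (log2 fold change -1.22, SE 0.29, adjusted p = 0.0147). Trib3 was the member called with IL-17A, going from 169, 152 and 124 to 249.8, 378 and 306 (log2 fold change 1.06, SE 0.25, adjusted p = 0.0472). With the near-identical control libraries averaged, Pdia5 lost its call with IL-1 and Trib3 its call with IL-17A.

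Hspa5 read 11158, 11597 and 11176 in controls, 14207, 10444 and 10984 with IL-1 (log2 fold change 0.06, SE 0.16, adjusted p = 0.807), and 13046, 11917 and 12284 beside 11136, 11531 and 11153 with IL-17A (log2 fold change 0.14, SE 0.14, adjusted p = 0.497). The IL-1 libraries lay on both sides of the controls. Xbp1 read 5267, 3870.3 and 4466 with IL-1 beside 2719, 3646 and 3680.2 (log2 fold change 0.44, SE 0.18, adjusted p = 0.0874), and 5061, 4191 and 4717 with IL-17A beside 2713, 3625 and 3673 (log2 fold change 0.49, SE 0.17, adjusted p = 0.0913), with every cytokine library above every control. That held for 27% (IL-1) and 21.7% (IL-17A) of all genes. Ern2 read 1149.7, 2129 and 1335 with IL-1 beside 1976, 2010.2 and 2044 (log2 fold change -0.44, SE 0.22, adjusted p = 0.157), and 1229.7, 2466 and 1233 with IL-17A beside 1972, 1999 and 2039.5 (log2 fold change -0.37, SE 0.28, adjusted p = 0.357). Agr2 read 3945, 8746 and 4858 with IL-1 beside 7550.1, 9207 and 9025 (log2 fold change -0.63, SE 0.28, adjusted p = 0.11), and 3638, 19325 and 4065 with IL-17A beside 7535, 9154 and 9007 (log2 fold change -0.37, SE 0.60, adjusted p = 0.667). For both genes libraries 1 and 3 were below all controls and library 2 was not, and IL-17A library 2 stood apart with 1233 CPM of Agr2, the highest of all organoid libraries. Without that library 7 members rose and 3 fell with IL-17A, while 41.2% of genes passed. The 7 were Herpud1 (1.38), Ddit3 (1.36), Edem1 (1.27), P4hb (0.91), Trib3 (0.91), Dnajb9 (0.90) and Xbp1 (0.56). The 3 were Pdia5 (-1.73), Agr2 (-1.15) and Ern2 (-0.70). IL-1 and IL-17A differed for 0 members at 72 h (0.00771% of genes).

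Markers of cell types also changed at 72 h, and a change in cell makeup cannot be told apart here from a change within cells. With IL-1 5 of 6 epithelial markers and 5 of 6 colonocyte markers rose, the latter from a summed 2284 to 4847 CPM in controls to 5387 to 11749 CPM, and 3 of 5 enteroendocrine markers rose. With IL-17A 1 of 6 epithelial, 0 of 6 colonocyte and 0 of 5 enteroendocrine markers rose, and 1 of 10 goblet markers fell. The goblet marker sum was 6791 to 7512 CPM in controls and 2328 to 10496 CPM with IL-1, with 0 of 10 called. The part of these shifts in the lower Pdia5 and in the Agr2 and Ern2 values was not tested. Among the related genes of the 8 lists 45 passed with IL-1 and 11 with IL-17A, beside 38.5% and 10.8% of all genes. Of 32 genes of the integrated stress response 9 rose and 2 fell with IL-1, and 6 rose with IL-17A. Gdf15, a cytokine released under stress, went from 473, 623 and 671 to 12945, 1561 and 4342 with IL-1 (log2 fold change 2.93, SE 0.65, adjusted p = 0.0117) and had a log2 fold change of 3.36 with IL-17A. Ero1l went from 4402, 3656 and 3664 to 48877, 17077 and 25702 with IL-1 (log2 fold change 2.84, SE 0.35, adjusted p = 0.00295) and had a log2 fold change of 3.23 with IL-17A. Of 24 other folding enzymes 2 rose and 2 fell with IL-1. Of 12 heat shock genes 1 rose (Hspb1, 2.50) and 5 fell, among them Hsph1 (-2.59), and of 10 mitochondrial chaperones 1 rose and 5 fell, among them Hspd1 (-1.75). Of 30 transport genes 6 rose and 1 fell, of 20 degradation factors 3 rose and 2 fell, of 31 entry and glycosylation genes 1 rose and 1 fell, and of 11 transcription factors 1 rose and 3 fell.

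**Figure D5:**
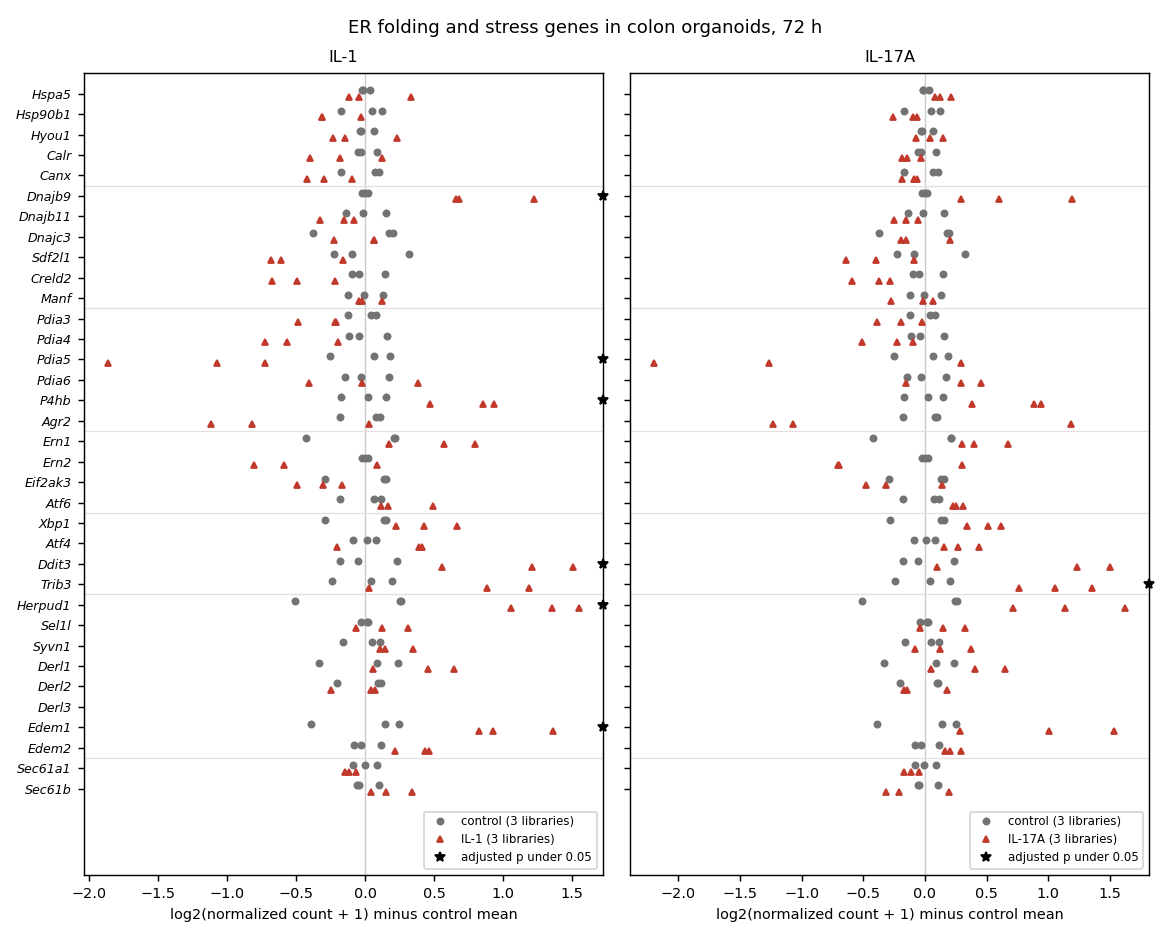
Members (rows, grouped by role) in organoids at 72 h with IL-1 or IL-17A, as log2(normalized count + 1) less the control mean of each gene, with 1 point per library for controls (circles) and cytokine libraries (triangles) and a star at the right edge where the adjusted p was under 0.05. Derl3 was under the filter and has no points. Herpud1 lies higher in all cytokine libraries, Pdia5 lies lower in all IL-1 libraries, and the Hspa5 points of IL-1 lie on both sides of the controls.

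The change with time was tested directly, as the cytokine effect at 72 h less that at 12 h in CPM. Each difference compared 12 libraries, with 2 controls entered at both times, and took its spread from all 18 organoid libraries. At 12 h Xist was carried by more cytokine than control libraries, and at 72 h by fewer. Sex therefore cannot be told apart from these differences. The difference was negative for 10 members with IL-1 (16% of all genes passed in either direction) and for 2 with IL-17A (0.909%), and positive for 0. All 10 were chaperones, cochaperones and secreted partners, isomerases or the translocon pore. Pdia4 (-1.14) and Hsp90b1 (-1.01) led, and Hspa5 had a difference of -0.73 (SE 0.17, adjusted p = 0.0347). Creld2 (-0.90), Pdia3 (-0.89), Canx (-0.83), Hyou1 (-0.81), Calr (-0.74), Manf (-0.64) and Sec61a1 (-0.59) followed. With IL-17A the 2 were Manf (-0.83, adjusted p = 0.0443) and Hyou1 (-0.73, adjusted p = 0.0443). Herpud1 (0.22, adjusted p = 0.682), Edem1 (0.43, adjusted p = 0.354) and Ddit3 (0.70, adjusted p = 0.148) had positive differences with IL-1 that did not pass. In CPM the median difference of all genes was itself -0.24 with IL-1 and -0.22 with IL-17A, beside -0.52 and -0.50 for the members. By edgeR on the reads, scaled so that the median gene stood at 0.02 for both, 4 members were lower with IL-1, without Hspa5 among them (13.8% of genes passed), and 0 with IL-17A (1.43%), and the members' medians were -0.25 and -0.16. The 4 were Hyou1 (-0.52), Pdia3 (-0.61), Hsp90b1 (-0.73) and Pdia4 (-0.85).

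Because 2 control libraries served both times, the difference was also fitted with each distinct control entered once, which sets the cytokine libraries of 72 h against those of 12 h and cannot tell time in culture apart from time with the cytokine. Then 1 member (Ddit3, 0.71) was positive and 16 were negative with IL-1, while 39.6% of genes passed, and 0 were positive and 14 negative with IL-17A, while 31.5% passed. Hspa5 stood at -0.78 with IL-1 (adjusted p = 0.00276) and -0.75 with IL-17A (adjusted p = 0.00356). Against the distinct controls in CPM, several chaperones stood below the controls at 72 h with IL-1, among them Hsp90b1 (-0.50), Canx (-0.51), Calr (-0.51), Pdia4 (-0.77) and Creld2 (-0.82), while Herpud1 stood above them (1.07). Leaving out 1 library at a time moved the number of members called between 0 and 10 with IL-1 and between 0 and 15 with IL-17A, where 15 was reached without IL-17A library 2 of 72 h. With IL-1 the count was 0 without control library 1 or 2 of 12 h, control library 2 or 4 of 72 h, IL-1 library 3 or 4 of 12 h, or IL-1 library 3 of 72 h.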

How the data were processed

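RNA was sequenced from sorted goblet cells, sorted stromal cells and organoids (SMARTER mRNA-seq kit). Per the submitters' notes and the study's methods, the authors aligned reads to mm10 with STAR 2.5.3, kept uniquely mapped reads and divided gene counts by DESeq2 1.28.1 size factors. The deposited tables hold this normalized signal, a read count scaled per library, for 1 comparison each. The counting program, annotation and strand setting are not given in the sources used here. The GS4M2 tables hold 4 unnamed rows each, with up to 28.22% of the values, which were left out.

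Whole reads were recovered from the steps of each column (100% of values whole within 0.1), giving 14221915 to 23686940 reads per library. Within a table, log2(normalized count + 1) of genes with a mean of at least 10 was tested with limma 3.58.1 (trend), two-sided, with Benjamini-Hochberg adjustment over all genes and a threshold of 0.05. Comparisons across tables used log2(CPM + 1) of the recovered reads, with library totals over all named genes between cell types and over the genes of all tables within one. Fold changes are on these scales and understate the change of low genes. edgeR 4.0.16 and DESeq2 1.42.0 on the reads, other pseudocounts and filters, upper-quartile rescaling, a library-number block and leaving out each library were alternatives. The fits were tested on simulated counts, where the block over 6 libraries made false calls above its threshold and the block over 9 libraries did not. The simulated counts held no near-identical libraries and no sex split, so they cannot vouch for the 9-library p-values given here. Library numbers deviated together in 7 of 7 pairs at 12 h, and not in every pair elsewhere (lowest correlation -0.152), so they are treated as pairing at 12 h only, as read from the data and not from the labels. Same-numbered libraries of 12 h also agreed in Xist, so these correlations cannot show whether number or sex paired them. Where Derl3 or Trib3 was under the filter it was not fitted.

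The members, the 8 lists of related genes and the marker lists were chosen with earlier results of these data known. Library values are given for members past the threshold and, in every comparison, for Hspa5, Xbp1, Ddit3, Ern2 and Agr2. Where more than 12 members passed, those with the largest changes were chosen. Members at unadjusted p or named for a lean (Herpud1, Edem1, Dnajb9, Eif2ak3, Edem2 and Derl3 outside their calls, and values with the block) were chosen after their values were seen. Intervals cover counting error and library spread only.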

Additional observations from a re-analysis of the deposited data

Results flagged for a closer look

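The effects of a cytokine at 72 h and at 12 h differed for members in a direct test of the difference (limma on log2(CPM + 1), adjusted over all genes). Each difference compared 12 libraries and took its spread from all 18 organoid libraries. With IL-1 the difference, 72 h less 12 h, was -1.14 for Pdia4, -1.01 for Hsp90b1, -0.90 for Creld2, -0.89 for Pdia3, -0.83 for Canx, -0.81 for Hyou1, -0.74 for Calr, -0.73 for Hspa5, -0.64 for Manf and -0.59 for Sec61a1, with adjusted p from 0.028 to 0.0489. With IL-17A it was -0.83 for Manf and -0.73 for Hyou1 (adjusted p = 0.0443 for both). The controls of both times share 2 libraries. At 12 h Xist was carried by more cytokine than control libraries, and at 72 h by fewer, so sex cannot be told apart from these differences. Leaving out 1 library at a time moved the number of members called between 0 and 10 with IL-1 and between 0 and 15 with IL-17A. By edgeR fewer members were called with either cytokine. Groups held 2 or 3 libraries, so no group was tested for a library apart from the others.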

How the results depend on the processing

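The values below are numbers of members called, with the cause of each shift not tested. They are given without the share of all genes under each setting. They show how calls depend on the setting and not whether members stand out from other genes. No value past its threshold changed sign. For members called, 289 fits without 1 library kept the call and 157 lost it, and 379 fits under the other settings kept it and 48 lost it. With DESeq2 on the reads the count was 2, 1 and 1 in goblet cells (proximal Smad4, proximal Alk3, distal Alk3) and 3 for Smad4 against Alk3 in either segment. In stroma DESeq2 gave 6 for proximal Smad4, 2 and 5 for proximal and distal Alk3, 2 for proximal against distal controls and 2 for distal Smad4 against Alk3. In organoids it gave 4 (IL-1, 12 h), 6 (IL-17A, 12 h), 6 (IL-17A, 72 h) and 7 (IL-17A, time). Calls at unadjusted p under 0.05 with a log2 fold change of at least 1 in size were 1 in goblet distal Smad4, proximal Alk3 and distal Alk3 each, 3 in stromal distal Smad4 and 3 in distal Alk3, 1 with IL-17A at 12 h and 2 at 72 h. The same fold limit with the adjusted p left 1 and 2 members in proximal and distal stromal Smad4. All libraries of a cell type in 1 fit gave 7, 1 and 2 in stroma (proximal Smad4, proximal and distal Alk3) and 17 and 13 at 72 h with IL-1 and IL-17A. Each distinct control entered once gave 17 with either cytokine at 72 h and 17 and 14 for time. Both of these 72 h fits are in CPM, where the median gene stood at -0.26 with IL-1. Averaging the near-identical libraries gave 3 and 0 at 72 h, and upper-quartile rescaling gave 0 with IL-17A. For time, edgeR gave 4 with IL-1 and 0 with IL-17A, and with IL-17A a pseudocount of 5 gave 4 and no filter gave 1.

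With the replicate block, 2 members passed in goblet proximal Smad4 and 2 in proximal Alk3, and 1 with IL-1 and 0 with IL-17A at 72 h. There not every same-numbered pair deviated together (4 of 6 goblet pairs did in each segment), so the numbers were not taken as pairs. At 12 h, where the numbers deviated together, the block gave 16 and 20, the block over 9 libraries 18 and 20 (and 2 for IL-1 against IL-17A), and the block with averaged libraries 15 and 18. The block changed no other count by over 1.5 times.

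Leaving out 1 library gave 0 to 0 members in goblet proximal Smad4, 0 to 3 in distal Smad4 (3 without distal control 1), 0 to 3 in proximal Alk3 (3 without Alk3 library 1) and 0 to 1 in distal Alk3 (1 without distal control 1). In stroma the range was 0 to 7 in proximal Smad4, 3 to 13 in distal Smad4, 0 to 0 in proximal Alk3 and 0 to 4 in distal Alk3 (4 without Alk3 library 1). At 12 h it was 0 to 0 with either cytokine, at 72 h 3 to 10 with IL-1 (3 without control 2, 10 without IL-1 library 2) and 0 to 10 with IL-17A (10 without IL-17A library 2), for time 0 to 10 and 0 to 15, and for goblet against stromal controls 23 to 26. A lone library left in a group was assumed to vary like the others. Few reads lay behind Trib3, Derl3, Ern2 in stroma and Agr2 in control stroma.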
